A study of Mus musculus with 29 samples.

Results

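Interferon-stimulated genes are the genes that cells switch on when interferon reaches them. The 48 genes described here were chosen by symbol, with earlier results of these data known. All 48 were found among the 55401 gene entries of the deposited tables. They fall into 11 groups by role: signal factors, nucleic acid sensors, PYHIN proteins, the ISG15 system, the IFIT, OAS and MX families, membrane restriction factors, immunity-related GTPases, guanylate-binding proteins and other induced genes. The study sequenced RNA of mesenchymal cells sorted from around the mouse common bile duct, about 1000 cells per animal, and holds 29 libraries that fall into 9 groups.

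All animals carried a tamoxifen-inducible CreERT2 recombinase and a Rosa26 lox-STOP-lox tdTomato reporter, so only cells in which the driver gene is active are marked. In Gli1:CreERT2 animals, where the Gli1 gene drives the recombinase, 3 libraries came from uninjured mice and 3 from mice on day 4 after bile duct ligation (BDL). In Pdgfra:CreERT2 animals, where a fibroblast gene drives it, the wild type is represented by 5 libraries, SmoFF and Gli2FFGli3FF by 4 each, SmoM2 and Ctnnb1FF by 3 each, and Gli2FF and Gli3FF by 2 each. The letters FF stand, by mouse genetics convention, for a pair of loxP-flanked alleles and SmoM2 for an active form of the Hedgehog transducer Smo. The labels used here name no sham operation, age or strain. Each library came from 1 animal, and every comparison below with the wild type shares the same 5 controls.

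Type I and type III interferons act through JAK kinases on transcription factors that bind the interferon-stimulated response element (ISRE). Interferon gamma acts through JAK kinases on a different site, the gamma-activated sequence (GAS). Fibroblasts respond to type I interferons and interferon gamma and also keep a low basal level of many of these genes without infection.

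Libraries held 15021796 to 38301189 counts. The share on a ribosomal RNA locus was 2.37 to 3.87% in the Gli1 libraries, 13.4 to 29.4% in wild type, 28 to 34.4% in Ctnnb1FF and 38.4 to 50.03% in Gli2FFGli3FF. It was 10.2 to 29.6% in SmoFF, 12.0 to 22.6% in SmoM2, 8.56 to 13.5% in Gli2FF and 24.5 to 39.1% in Gli3FF. Leaving that locus out moved no count of called genes by over 1.5 times. Genes detected per library were 17121 to 20753 in uninjured and 23482 to 24964 in BDL. Wild type had 21127 to 24483, Gli2FF 25279 to 28028 and Gli2FFGli3FF 17508 to 20055. Fibroblast markers were present in all groups, and none of the 10 was at 0 throughout a group. Across 24383 genes, wild type libraries 1 to 3 correlated with each other at 0.936 to 0.945 and library 4 with library 5 at 0.934, but the sets correlated with each other at 0.887 to 0.913. Each set was therefore also used alone as control. Smo was lower in SmoFF (log2 fold change -1.91), Gli3 in Gli3FF (-1.45), and Gli2 (-1.87) and Gli3 (-2.65) in Gli2FFGli3FF. Gli2 in Gli2FF (-0.85 ± 0.52 SE, adjusted p = 0.398) and Ctnnb1 in Ctnnb1FF (-0.44 ± 0.19 SE, adjusted p = 0.108) did not pass edgeR's quasi-likelihood test. The flanked exons are not labelled, so reads outside the removed part may remain.

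RefSeq promoter entries (GRCm38.p6) matched 37 of the 48 genes, and the 250 bases before the start were searched on both strands. The ISRE core, GAAA and GAAA with any 2 bases between, lay in 20 of the 37, or 54.1%, against 3.04% of all 27025 promoters. The GAS, TTC and GAA with any 3 bases between, lay in 12, or 32.4%, against 7.18% of all promoters, and 8 held both. All 4 guanylate-binding protein genes and 5 of 6 matched immunity-related GTPase genes had an ISRE core. The stretches below show the core in genes whose levels are described later, 5′ to 3′ on the gene's strand, with ISRE cores and GAS matches in capitals. They begin with Ifit1 (chr19:34640779-34640838, plus strand), Gbp2 (chr3:142620579-142620638, plus strand), Trim30a (chr7:104465195-104465254, minus strand) and Ifi211 (chr1:173913049-173913108, minus strand), all 60 bases long and upstream of the annotated start.
Ifit1: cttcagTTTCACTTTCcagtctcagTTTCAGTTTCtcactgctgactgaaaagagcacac
Gbp2: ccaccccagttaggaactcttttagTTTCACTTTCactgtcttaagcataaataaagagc
Trim30a: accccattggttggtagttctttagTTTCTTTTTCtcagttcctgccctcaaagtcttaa
Ifi211: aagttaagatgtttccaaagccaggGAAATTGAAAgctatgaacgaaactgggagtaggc
Ifit1 holds the core more than once, read from the other strand as TTTC, 2 bases and TTTC.

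A second set shows promoters in which a GAS and an ISRE core lie side by side. They are Bst2 (chr8:71537562-71537621, minus strand), Irgm2 (chr11:58214888-58214947, plus strand), Igtp (chr11:58199496-58199555, plus strand), Tgtp1 (chr11:48992289-48992348, minus strand) and Tgtp2 (chr11:49064248-49064307, minus strand).
Bst2: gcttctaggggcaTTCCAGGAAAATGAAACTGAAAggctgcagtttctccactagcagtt
Irgm2: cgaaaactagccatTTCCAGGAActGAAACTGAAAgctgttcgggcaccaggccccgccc
Igtp: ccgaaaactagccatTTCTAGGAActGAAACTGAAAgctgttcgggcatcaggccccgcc
Tgtp1: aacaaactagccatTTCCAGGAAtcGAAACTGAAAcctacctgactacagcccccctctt
Tgtp2: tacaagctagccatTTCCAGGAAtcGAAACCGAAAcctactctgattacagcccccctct
In the 4 GTPase genes the GAS is followed, after 2 bases, by the ISRE core. This joined motif was searched after the single sites had been seen and occurred in 5 of the 27025 promoters (0.0185%), the other being the predicted gene Gm12185, which overlaps Tgtp1. In Bst2 the GAS and the cores overlap. A match is a description of letters and not of binding.

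The genes are also neighbours: 29 of the 48 lie in 10 clusters, counted as genes of the list within 1 Mb of each other in GENCODE M21 (mm10). The largest sets are the Ifit genes on chromosome 19 (chr19:34550694-34650009), the Gbp genes on chromosome 3 (chr3:142493978-142638008) and Irgm1, Tgtp1, Tgtp2 and Ifi47 on chromosome 11 (chr11:48861968-49096974). Ifi203, Ifi204 and Ifi211 share chr1:173747293-173942672, and Ifitm1, Ifitm3 and Irf7 share chr7:140967221-141266481. Tgtp1 and Tgtp2, Ifit3 and Ifit3b, and the PYHIN genes are close copies, and Igtp overlaps Irgm2, Ifi203 overlaps Mndal and Irf9 overlaps Rnf31 on the same strand. How reads were divided among such genes is not given in the sources used here, so their single values are uncertain.

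In wild type fibroblasts, the level per kilobase of exon was led by Ifitm3 at 1263 ± 252 CPM per kb, where CPM are read counts scaled to the library size (SD, n = 5). Ifitm3 is a membrane protein that hinders virus entry. Ifi27l2a followed at 337 ± 89.3 and Bst2, which tethers budding virus to the cell, at 99.8 ± 19.7 CPM per kb. Ifitm1 (57.3 ± 19.1) and Ifi211 (46.0 ± 10.2) overlapped in their spread, as did Gbp2 (27.2 ± 7.62) and Ifi204 (26.7 ± 1.13). At the other end Mx1 (0.0741 ± 0.0973) and Oas3 (0.0624 ± 0.0644) were close to 0. In BDL the order began with Ifitm3 (899 ± 109, n = 3), Ifitm1 (89.6 ± 49.6), Ifi27l2a (63.1 ± 9.11) and Bst2 (24.9 ± 5.78 CPM per kb).

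Interferon genes themselves were at the edge of detection. All 7 Ifna genes listed separately had 0 counts in every library, Ifnb1 had 3 counts in 1 BDL library, and Ifng reached 2.74 CPM at most in the uninjured group and had 0 counts in BDL. Their summed level over 15 genes lay between 0.275 and 2.82 CPM in uninjured, 0.130 and 0.714 CPM in BDL, and 0.178 and 1.13 CPM in wild type. Of the 6 receptor genes, 5 had counts in every group, and the sum of the 6 lay between 445 and 533 CPM in uninjured and 261 and 301 CPM in BDL. Ifnlr1, the ligand-binding chain of the interferon lambda receptor, was at 0 in all uninjured, Ctnnb1FF and Gli3FF libraries.

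The mean of log2 CPM over the 48 genes, used only as a description, was 3.98, 3.60 and 3.69 in the uninjured libraries and 1.51, 2.48 and 1.66 in BDL. All BDL libraries lay below all uninjured ones. In the Pdgfra groups the group means lay between 3.86 in Gli3FF and 4.32 in Gli2FFGli3FF, around the wild type mean of 4.09 ± 0.16 (SD, n = 5). The spread within groups was wide there, from 3.70 to 4.56 in SmoFF and from 3.51 to 4.2 in SmoM2.

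**Figure D1:**
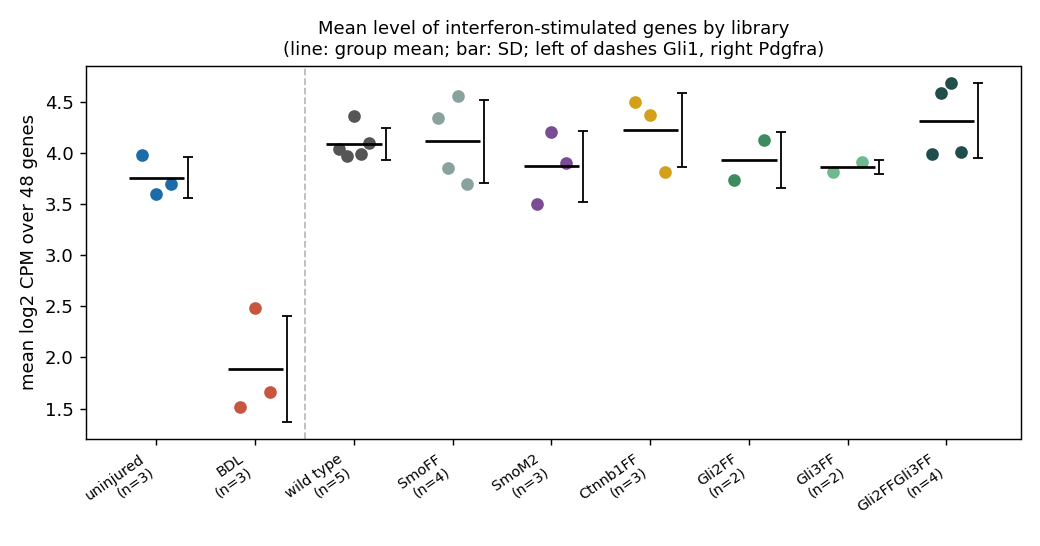
Mean log2 CPM over the 48 genes for each library (points), with the group mean (line) and SD (bar), in Gli1 groups left of the dashed line and Pdgfra groups right of it. The 3 BDL libraries lie between 1.51 and 2.48, below all other libraries.

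These genes were lower after ligation. Of the 43 that could be tested in the Gli1 libraries, 22 were lower in BDL and 0 higher at a Benjamini-Hochberg adjusted p under 0.05 by edgeR, against 5.8% of 17150 genes lower and 7.77% higher (13.6% in either direction). At an unadjusted p under 0.05 there were 30 lower and 1 higher. The median log2 fold change was -1.90, against 0.07 over all genes, and 42 of the 43 had a negative sign. All BDL libraries lay below all uninjured ones for 34 of the 43 and above them for 1. Over all genes these shares were 14.2% and 23.3%. Oas3, Oasl1, Mx1, Gbp5 and Ifi44 had too few counts to be tested. The number of lower genes was 12, 11 and 6 without BDL library 1, 2 and 3, and DESeq2 called 30. The 6 genes lower in every fit that left out 1 library were Ifi204, Ifi27l2a, Iigp1, Irgm2, Oasl2 and Trim30a. Every other called gene lost its call in at least 1 of these fits.

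**Figure D2:**
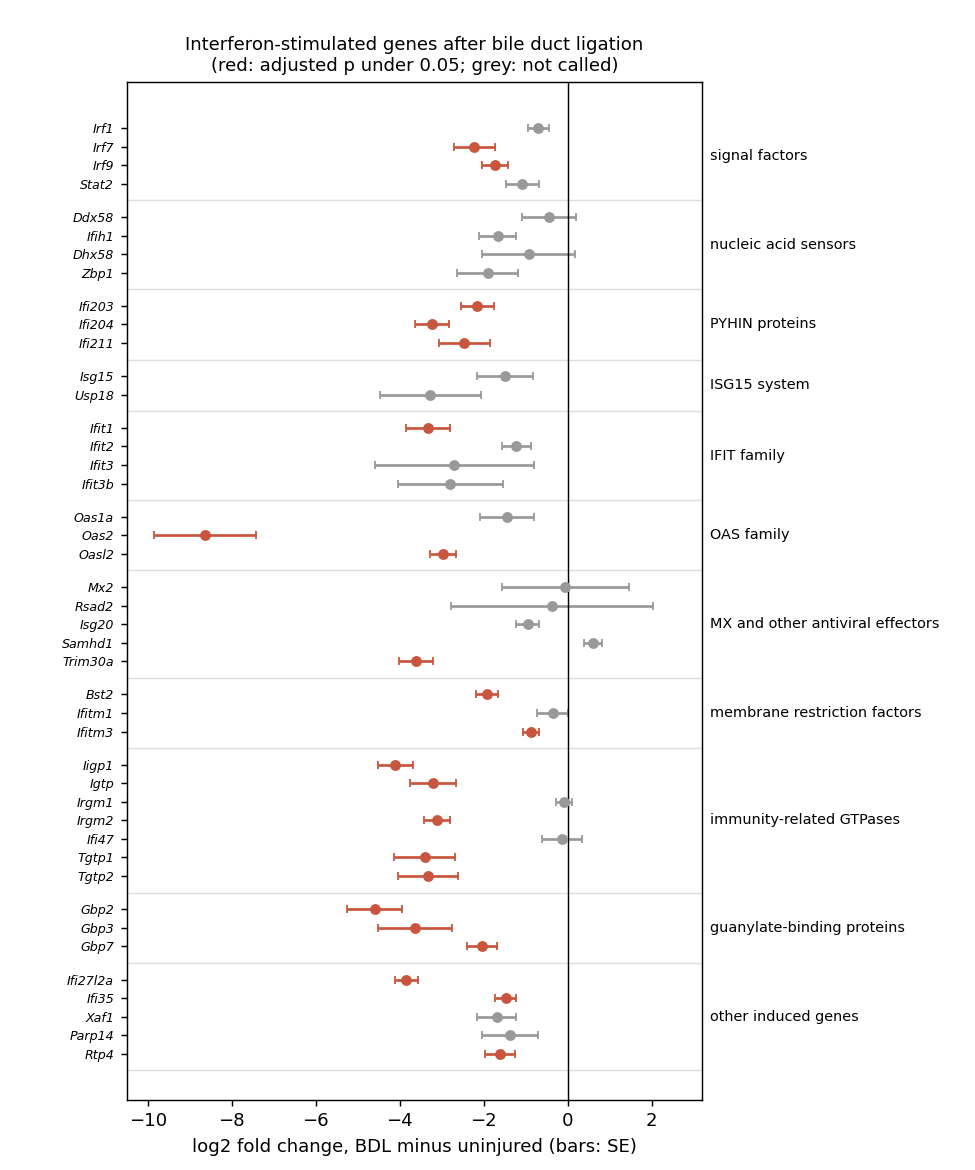
Log2 fold change of each tested gene between BDL and uninjured Gli1 libraries (3 against 3) with its standard error, ordered by role. The called genes, in red, all lie below 0, and Irgm1, Ifi47 and Mx2 lie near 0.

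The immunity-related GTPases, which attack the vacuoles of intracellular parasites, divided sharply. Iigp1 was at 54.8, 46.4 and 41.3 CPM in uninjured libraries and at 4.31, 1.66 and 2.56 CPM in BDL, a log2 fold change of -4.10 ± 0.42 (SE, adjusted p = 0.00348, edgeR). Irgm2 was at 30.8, 26.8 and 29 CPM against 2.58, 4.07 and 3.60 CPM (-3.12 ± 0.31, adjusted p = 0.00327). The groups did not overlap for either gene. Igtp (-3.21), Tgtp1 (-3.41) and Tgtp2 (-3.33) were lower as well, and these carry the joined GAS and ISRE core shown above, as does Irgm2. The calls of Igtp, Tgtp1 and Tgtp2, unlike that of Irgm2, did not hold in every fit that left out a library. Irgm1, a regulator of the other family members, was at 29.9, 30.4 and 37.4 CPM in uninjured and 30.8, 34.5 and 29.6 CPM in BDL, and its change of -0.08 ± 0.19 was not called although its promoter also holds ISRE cores. Ifi47, at 7.98 to 12.1 against 5.65 to 15.1 CPM, was not called either (-0.13 ± 0.48).

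Guanylate-binding proteins, which act beside those GTPases against intracellular pathogens, fell in 3 of 3 tested cases. Gbp2 was at 141, 120 and 168 CPM in uninjured and at 2.82, 12.3 and 3.13 CPM in BDL (-4.60 ± 0.65, adjusted p = 0.00948). Gbp3 fell by 3.65 and Gbp7 by 2.04 on the log2 scale. Neither call held in every fit that left out a library. One uninjured library, the second, held Gbp3 at 6.07 CPM against 59.5 and 40.6 in the others, still above the highest BDL value of 4.14. The Gbp2 call was lost without BDL library 3.

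PYHIN proteins, a family that includes DNA sensors and transcription regulators, were lower in 3 of 3. Ifi204 was at 117, 123 and 141 CPM in uninjured and at 22.4, 9.03 and 9.82 CPM in BDL (-3.24 ± 0.40, adjusted p = 0.00657). Ifi203 (-2.15) and Ifi211 (-2.46) fell as well. Their calls, unlike that of Ifi204, did not hold in every fit that left out a library. In each of the 3 genes BDL library 1 was the highest of its group, but it stayed below all uninjured libraries.

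Among the antiviral effectors, Oasl2, of the oligoadenylate synthetase family, was at 45.5, 43.1 and 47.9 CPM in uninjured and 3.94, 7.89 and 6.07 CPM in BDL (-2.97 ± 0.31, adjusted p = 0.00357). Oas2, which makes the activator of RNase L, had 491 counts over the 3 uninjured libraries and 1 count over the 3 BDL libraries, a ratio of 531 with an exact 95% counting interval of 94.9 to 21028 (edgeR adjusted p = 0.00929). Trim30a, a ubiquitin ligase family member, was at 14.5, 20.6 and 22.6 CPM against 1.29, 1.89 and 1.64 CPM (-3.62 ± 0.40, adjusted p = 0.00466). The groups did not overlap for these 3 genes. Ifit1, which binds viral RNA, was at 22.4, 16.7 and 16.8 CPM against 1.25, 3.16 and 1.28 CPM (-3.33 ± 0.53, adjusted p = 0.0135). The Oas2 and Ifit1 calls were lost without BDL library 3 and with the replicate block, and that of Ifit1 also without BDL library 1. Ifit2, Ifit3, Ifit3b and Oas1a were not called, with log2 fold changes of -1.22, -2.70, -2.79 and -1.45. Ifit3 was at 0, 6.06 and 0.0298 CPM in the 3 BDL libraries.

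Ifi27l2a, a small mitochondrial protein gene that interferon strongly induces, had the smallest p of the list. It stood at 308, 530 and 385 CPM in uninjured and at 29.7, 33.2 and 24.8 CPM in BDL (-3.84 ± 0.27, adjusted p = 0.00100, edgeR). Ifi35 (-1.48) and Rtp4 (-1.61) fell in the same group of other induced genes, while Xaf1 (-1.69, adjusted p = 0.0623) and Parp14 (-1.37) were not called. The Ifi35 and Rtp4 calls did not hold in every fit that left out a library. Bst2 was at 61.1, 97.1 and 89.5 CPM against 21.7, 28 and 17.6 CPM (-1.92 ± 0.27, adjusted p = 0.00948), and its call was lost without BDL library 3. Ifitm3 fell by 0.87, less than most, and its call did not hold in every fit that left out a library. Ifitm1 was not called (-0.36 ± 0.38), with BDL library 1 at 161 CPM above all uninjured libraries (112 to 130) and the others at 68.3 and 65.2.

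Of the signal factors, Irf9, a DNA-binding subunit of the complex that recognises the ISRE, was at 36.5, 58.7 and 31.2 CPM against 11.6, 14.0 and 13.7 CPM in BDL (-1.73). Irf7, which amplifies type I interferon production, also fell (-2.22). The Irf9 and Irf7 calls did not hold in every fit that left out a library. Irf1 (-0.70) and Stat2 (-1.08) were not called. The nucleic acid sensors Ddx58, Ifih1, Dhx58 and Zbp1 were not called, with Ifih1 nearest to the threshold (-1.67, adjusted p = 0.0570). Isg15 (-1.49), Usp18 (-3.27), Isg20 (-0.95), Mx2 (-0.05) and Rsad2 (-0.37) were not called. Samhd1, which degrades nucleotides, was the one gene with a positive sign, at 20.1 to 27.8 CPM in uninjured and 33.3 to 40.9 CPM in BDL (0.61, adjusted p = 0.128).

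By promoter, 11 of 18 tested genes with an ISRE core were lower in BDL (median log2 fold change -2.74), 6 of 15 without one (-1.22), and 5 of 10 without a RefSeq entry (-2.57). The ranges of those with and without a core overlapped, at -4.60 to -0.08 and -2.97 to 0.61. Over all 17150 genes 5.8% were lower. The matching shares over all genes with and without a core were not made, so these counts only describe the list. Several genes with a core are neighbours or close copies, and the part of the core in the fall was not tested.

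Upstream in the pathway, Ifngr1, the ligand-binding chain of the interferon gamma receptor, was at 295 ± 35.2 CPM in uninjured (SD, n = 3) and 68.4 ± 12.8 CPM in BDL (-2.15 ± 0.20 SE, adjusted p = 0.00278, edgeR). Its partner Ifngr2 rose from 54.2 to 95.2 CPM (0.78). Il10rb, a chain of the interferon lambda receptor, fell (-0.99), and Ifnar1 and Ifnar2, the type I receptor, were at 36.3 and 49.2 CPM in uninjured and at 35.9 and 49.9 CPM in BDL. Jak1 fell (-1.04), the only one of 7 JAK-STAT transducers called. Of 12 tested sensing adaptors 0 were called, and of 7 negative regulators 1 rose, Ptpn11.

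Markers of fibroblasts and of other cells moved with ligation too. The 10 fibroblast markers summed to 30610 to 36835 CPM in uninjured and 56467 to 58163 CPM in BDL, with 5 higher and 3 lower. The 8 smooth muscle markers summed to 41.6 to 98.7 CPM in uninjured and 3762 to 4514 CPM in BDL, and 5 of 8 rose. The 10 mesothelial markers summed to 257 to 1138 and 66.8 to 100.4 CPM, with 6 lower, and the 10 endothelial markers to 100.0 to 126 and 13.1 to 19.6 CPM, with Tie1, Emcn and Cldn5 at 0 in all uninjured libraries. Of the 7 endothelial markers tested only Tek was lower (95.1 against 1.12 CPM), and the median log2 fold change of the 7 was -0.0078. The 15 immune markers summed to 9.63 to 21.1 CPM in uninjured and 29.8 to 80.4 CPM in BDL, with 1 of 10 tested higher, and Fcer1g, Adgre1, Cd3e, Cd4 and Siglech were at 0 in all uninjured libraries and Nkg7 in all BDL libraries. The 12 macrophage and dendritic cell markers summed to 2.08 to 17.8 and 27.9 to 69.7 CPM, with C1qa and C1qc higher and Itgam at 0 in all BDL libraries. The part of these shifts in the fall of the interferon-stimulated genes was not tested, and fewer cells of a type and less RNA per cell cannot be told apart in bulk samples.

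In the Pdgfra fibroblasts 15 of the 48 genes were called in at least 1 of 6 genotypes against wild type. In all, 28 genes were called in BDL or a genotype, 20 were called in none of these 7 comparisons, and 13 were called in BDL alone. The 9 genes called in 2 or more genotypes were Irf1, Ifi203, Ifi204, Ifi211, Bst2, Ifitm1, Ifitm3, Gbp5 and Ifi27l2a. The matching counts over all genes were not made, so these counts only describe the list. In single comparisons, 19.9% of all genes tested were called in Ctnnb1FF, 17.2% in Gli2FFGli3FF and 13.6% in BDL.

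**Figure D3:**
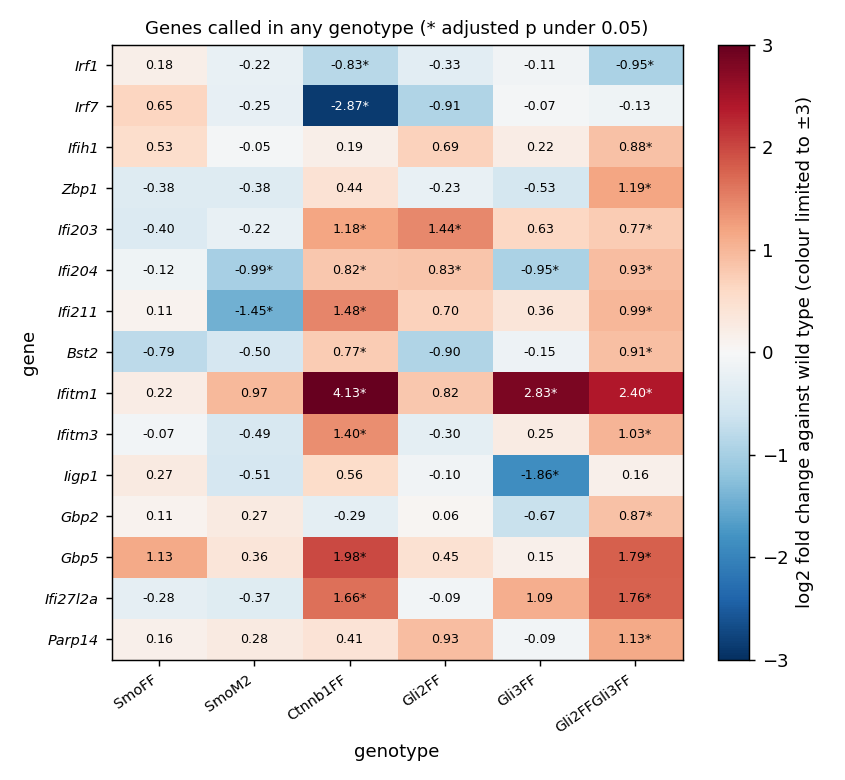
Log2 fold change against wild type of the 15 genes called in any Pdgfra genotype (rows) in the 6 genotypes (columns), with an asterisk where the adjusted p was under 0.05. Ifi204 is positive in Ctnnb1FF, Gli2FF and Gli2FFGli3FF and negative in SmoM2 and Gli3FF.

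SmoFF, with Smo removed, gave no call. Of 48 tested genes 0 were higher and 0 lower by edgeR, against 0.287% of 24383 genes higher and 1.26% lower (1.55% in either direction). At an unadjusted p under 0.05 there were 3 higher and 3 lower, and DESeq2 called 2 higher and 2 lower. Xaf1, linked to apoptosis, was at 33.7, 13, 16.1 and 14.2 CPM in SmoFF and at 32.8 to 46.1 CPM in wild type. SmoFF library 1 also held the highest immune marker sum of its group, 257 CPM against 8.10 to 20.5 CPM in the others. The change of -1.02 was not called (adjusted p = 0.0867, edgeR), but it was without library 1 (-1.44, adjusted p = 0.0199), without a filter on low counts and by DESeq2. Bst2 was at 60.1, 48.6, 58.8 and 44.1 CPM, below the wild type range of 72.2 to 118 CPM (-0.79, adjusted p = 0.0915, edgeR). Gbp7 was at 38.5, 34.7, 59.6 and 41.8 CPM against 14.7 to 33.7 CPM (0.81, adjusted p = 0.104). Oasl2 was at 90.7, 91.8, 68.5 and 58.8 CPM against 33.2 to 51.4 CPM (0.84, adjusted p = 0.128). The groups did not overlap for these 3 genes, and DESeq2 called all 3. With 1 of the 48 genes below and 2 above all wild type libraries, the list was near all 24383 genes (2.56% and 2.23%). Mesothelial markers summed to 590 to 1429 CPM in SmoFF and 168 to 406 CPM in wild type with 0 of 10 called, and 4 of 10 fibroblast markers were lower. Their part was not tested.

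SmoM2, with an active Smo, lowered 2 of 48 genes and raised 0, against 0.0779% of all genes lower and 0.127% higher (0.205% in either direction), and both are PYHIN genes. Ifi204 was at 40.7, 55.3 and 52.5 CPM, below all wild type libraries at 98.7, 89.8, 98.8, 96.7 and 92.3 CPM (-0.99 ± 0.16 SE, adjusted p = 0.00482, edgeR). Ifi211 was at 26.3, 33.3 and 33.7 CPM against 67.0, 69.4, 69.9, 102 and 102 CPM (-1.45 ± 0.21, adjusted p = 0.00152). The groups did not overlap for either gene. Ifi203, their neighbour, was at 33.7, 49.0 and 41.0 CPM against 37.9 to 56.5 CPM and not called (-0.22). Against SmoFF, the opposite setting of the same transducer, the same 2 genes were lower (Ifi204 -0.87, Ifi211 -1.56) and 0 were higher, against 0.89% of all genes lower and 1.74% higher (2.63% in either direction). The Ifi204 calls were lost without SmoM2 library 1, and the one against SmoFF also with only these 2 groups in the fit. Ifitm1, at 99.3, 121 and 160 CPM against 47.7 to 98.8 CPM in wild type, lay above all wild type libraries and was not called (0.97, adjusted p = 0.561). In SmoM2, 2 of the 48 genes lay below and 1 above all wild type libraries, against 3.56% and 4.68% of all genes. Oas3 had 0 counts in all SmoM2 libraries and 67 over the 5 wild type libraries, and was not called. Against SmoFF, Oasl2 (-1.08, adjusted p = 0.0690) and Xaf1 (0.81, adjusted p = 0.225) were next in order of p and not called by edgeR. The 8 smooth muscle markers summed to 284 to 308 CPM in SmoM2 and 56.9 to 85.6 CPM in wild type, and in SmoM2 against SmoFF 6 of 10 fibroblast markers were higher. The part of these markers in the results was not tested.

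Ctnnb1FF, with loxP-flanked beta-catenin, had a median log2 fold change of -0.61 over all genes but of -0.11 over genes at a log2 CPM of 3 or more, so the shift lay mostly in genes below that level. Upper quartile scaling moved the all-gene median by 0.16. Genes detected per library were 15892 to 17726, against 21127 to 24483 in wild type. Changes are given as fitted. Of 48 genes 8 were higher and 2 lower, against 8.04% of all genes higher and 11.9% lower (19.9% in either direction). Calls in either direction covered 20.8% of the 48, near the share of all genes. By direction, 16.7% of the 48 were higher and 4.17% lower. The median of the 48 was 0.38. Relative to the all-gene median, the 8 higher genes lay between 1.38 for Bst2 and 4.74 for Ifitm1, while Irf7 was at -2.26 and Irf1 at -0.21. Relative to the -0.11 of genes at a log2 CPM of 3 or more, the rises are smaller and the falls larger.

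Ifitm1, a membrane protein against virus entry, was at 1137, 1852 and 566 CPM in Ctnnb1FF and at 51.2, 98.8, 62.3, 47.7 and 53.4 CPM in wild type. The lowest Ctnnb1FF library was above the highest wild type one, and the log2 fold change was 4.13 (± 0.42 SE, adjusted p = 8.83e-07, edgeR). Ifitm3 was at 2403, 3103 and 1801 CPM against 674 to 1135 CPM (1.40). Bst2 was at 170, 211 and 117 CPM against 72.2 to 118 CPM (0.77), overlapping, and its call was lost in 7 alternatives, among them those without wild type library 1, 4 or 5 or Ctnnb1FF library 2.

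All 3 PYHIN genes were higher in Ctnnb1FF. Ifi211 was at 219, 299 and 222 CPM (1.48, adjusted p = 1.60e-05, edgeR). Ifi203 was at 121, 115 and 104 CPM (1.18) and Ifi204 at 174, 179 and 189 CPM (0.82). No Ctnnb1FF library overlapped wild type for these 3 genes. In all, 8 of the 48 genes lay above and 2 below all wild type libraries, against 11.3% and 13.6% of all genes. Ifi27l2a (511, 536 and 538 CPM against 95.7 to 192, 1.66) and Gbp5 (14.2, 23.8 and 4.63 CPM against 1.55 to 7.16, 1.98) were higher too. Gbp5 overlapped wild type, and its call was lost without Ctnnb1FF library 2 and against wild type 4 and 5 alone.

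Irf7 went the other way. It was at 5.01, 1.79 and 1.93 CPM in Ctnnb1FF against 17.4 to 24.3 CPM in wild type, a log2 fold change of -2.87 (± 0.52 SE, adjusted p = 0.000411, edgeR), although it lies in the same cluster as Ifitm1 and Ifitm3. Irf1, a first-wave interferon gamma response factor, was at 20.8, 21.3 and 24.7 CPM against 28.2 to 44.4 CPM (-0.83), and its call was lost without Ctnnb1FF library 1 or 2, without a filter on low counts and against wild type 4 and 5 alone. Stat2 and Irf9 were not called. Immune markers summed to 18.3 to 53.2 CPM against 7.93 to 83.3 CPM in wild type, with Cd68, Cd3e and Cd4 at 0 in all Ctnnb1FF libraries. The 10 T and natural killer cell markers summed to 5.02 to 18.5 CPM, above wild type at 0.355 to 2.66 CPM. Of these 10, 7 were at 0 in all Ctnnb1FF libraries. The 6 tested gave 0 calls, with a median log2 fold change of -3.76 in Ctnnb1FF. Smooth muscle markers summed to 91.9 to 330 CPM there (wild type 56.9 to 85.6), with 4 of 8 higher and Cnn1 lower and at 0. Mesothelial markers summed to 24.4 to 208 CPM (wild type 168 to 406), with Wt1, Upk3b and Lrrn4 of 10 lower. Macrophage and dendritic cell markers summed to 13.1 to 24.0 CPM (wild type 8.86 to 115), with Cd68 and C1qa of 9 tested lower, and endothelial markers to 22.6 to 85.2 CPM (wild type 59.6 to 93.7), with Kdr of 8 tested lower. The part of these markers was not tested.

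**Figure D4:**
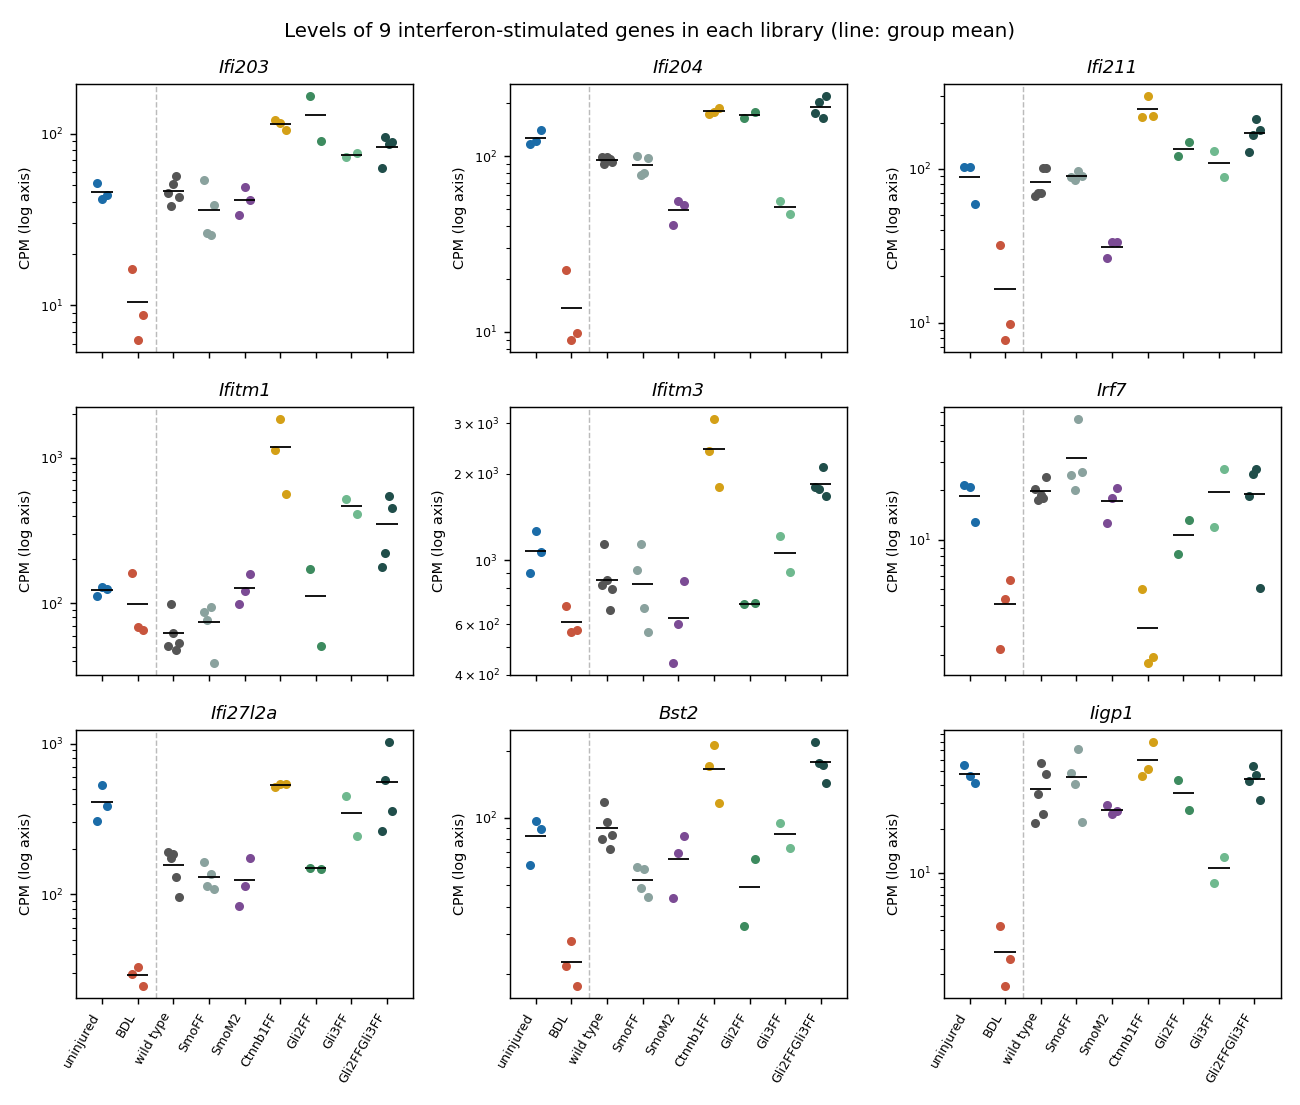
CPM on a log axis of 9 genes in each library (points) with the group mean (line), Gli1 groups left of the dashed line. Ifitm1 and Ifitm3 are highest in Ctnnb1FF, where Irf7 is at 1.79 to 5.01 CPM.

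Gli2 is known as the main activator and Gli3 as the main repressor of Hedgehog target genes, and the groups with either gene flanked had 2 libraries each. In Gli2FF 2 of 48 genes were higher and 0 lower, against 2.58% of all genes higher and 3.26% lower (5.84% in either direction). The share of the 48 that was called, 4.17%, was thus not above that of all genes. Ifi203 was at 166 and 90.9 CPM against 37.9 to 56.5 in wild type (1.44 ± 0.26, adjusted p = 0.00186), and Ifi204 at 165 and 178 CPM against 89.8 to 98.8 (0.83 ± 0.17, adjusted p = 0.00513). Both calls were lost against wild type 4 and 5 alone and without Gli2FF library 1, and that of Ifi204 also without library 2 and without a filter on low counts. Ifi211, at 121 and 149 CPM against 67.0 to 102, was above all wild type libraries but not called (0.70). Irf9, at 22.1 and 25.8 CPM against 33.9 to 47.3, was below all of them and not called (-0.82, adjusted p = 0.0700, edgeR). Such separation is common with 2 libraries. In Gli2FF 21.7% of all genes lay above and 13.2% below all wild type libraries, as did 7 and 11 of the 48. Dcn, Vim and Thy1 of the 10 fibroblast markers were lower in Gli2FF, and their part was not tested.

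In Gli3FF 1 of 48 genes was higher and 2 lower, against 2.09% of all genes higher and 2.36% lower (4.45% in either direction). The share of the 48 that was called, 6.25%, was near that of all genes. Ifitm1 was at 521 and 408 CPM, above all wild type libraries (2.83 ± 0.44, adjusted p = 0.000373). Ifi204 was at 55.7 and 46.7 CPM, below all wild type libraries (-0.95 ± 0.19, adjusted p = 0.00332), while Ifi203 at 72.8 and 77.2 CPM lay above all of them without a call (0.63). Iigp1 was at 8.55 and 12.9 CPM against 21.9 to 57.4 (-1.86 ± 0.43, adjusted p = 0.0127). Ifi27l2a, at 447 and 242 CPM against 95.7 to 192, was above all wild type libraries and not called by edgeR (1.09, adjusted p = 0.102). In Gli3FF 11.9% of all genes lay above all wild type libraries and 11.9% below, as did 6 and 5 of the 48. The Ifi204 call was lost without Gli3FF library 2 and the Iigp1 call without either library. In Gli3FF the 10 mesothelial markers summed to 41.5 to 55.9 CPM (wild type 168 to 406), with 4 lower, and the 10 endothelial markers to 5.42 to 10.6 CPM (wild type 59.6 to 93.7), with Tek and Kdr of 8 tested lower. Pecam1 and Kdr were at 0 in Gli3FF, and Cdh5, Tie1, Emcn and Cldn5 were at 0 in Gli3FF and in wild type. Col1a1, Col1a2 and Thy1 of the 10 fibroblast markers were higher in Gli3FF. The part of these markers was not tested.

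Set directly against each other, Gli3FF had 2 genes higher than Gli2FF and 3 lower, against 2.56% of all genes higher and 2.29% lower (4.84% in either direction). Ifi204 differed by -1.78 ± 0.22 (adjusted p = 4.47e-05, edgeR). Ifitm1 (2.01) and Ifit2 (1.99) were higher, and Iigp1 (-1.76) and Gbp7 (-1.32) lower. With only these 2 groups in the fit, 0 were called in either direction. When 1 of the 4 libraries was left out, Ifi204 stayed called, and 0 to 1 genes were higher and 1 lower. Of 10 fibroblast markers 6 were higher in Gli3FF than in Gli2FF, and their part was not tested.

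Gli2FFGli3FF, with both genes flanked, had 12 of 48 genes higher and 1 lower, against 7.6% of all genes higher and 9.56% lower (17.2% in either direction). The median of the 48 was 0.25, against -0.35 over all genes and -0.011 over genes at a log2 CPM of 3 or more. Against wild type 4 and 5 alone 6 were higher. The members were not of 1 role: PYHIN genes, IFITM genes, sensors, guanylate-binding proteins and others were among them.

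Ifi204 was at 175, 203, 165 and 220 CPM, above all wild type libraries (0.93 ± 0.14 SE, adjusted p = 8.71e-05, edgeR). Ifi211 was at 129, 166, 212 and 180 CPM (0.99) and Ifi203 at 63.4, 95.3, 86.6 and 89.1 CPM (0.77). None overlapped wild type. In Gli2FFGli3FF, 9 of the 48 genes lay above and 4 below all wild type libraries, against 9.77% and 9.71% of all genes. The Ifi203 call was lost against either wild type set alone, with the replicate block and without wild type library 5, and the Ifi211 call against wild type 4 and 5 alone.

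Ifitm1 was at 179, 222, 545 and 449 CPM, above all wild type libraries (2.40 ± 0.39, adjusted p = 0.000151). Ifi27l2a was at 262, 572, 1025 and 359 CPM against 95.7 to 192 (1.76 ± 0.31, adjusted p = 0.000370). Ifitm3 (1671 to 2106 against 674 to 1135 CPM, 1.03) and Bst2 (144 to 219 against 72.2 to 118 CPM, 0.91) also did not overlap, and the Bst2 call was lost against wild type 1 to 3 alone (adjusted p = 0.0841, edgeR). Library 3 held the highest Ifi27l2a, Ifitm1 and Ifitm3 of the group.

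Among sensors, Ifih1, which detects long double-stranded RNA, was at 40.0, 36.0, 48.5 and 58.9 CPM against 11.7 to 31.1 (0.88), and Zbp1, which senses Z-form nucleic acid, at 39.6, 40.7, 46.6 and 15.7 CPM against 7.49 to 22.0 (1.19), overlapping in the last library. Parp14, an ADP-ribosyltransferase, rose by 1.13, Gbp2 by 0.87 and Gbp5 by 1.79. Irf1 was lower at 20.4, 16.2, 25.2 and 18.3 CPM against 28.2 to 44.4 (-0.95 ± 0.20, adjusted p = 0.00169). The Ifih1 call was lost without Gli2FFGli3FF library 4 and against wild type 4 and 5 alone (adjusted p = 0.109, edgeR).

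Immune markers summed to 506 and 176 CPM in Gli2FFGli3FF libraries 1 and 4 and to 21.4 and 22.7 CPM in libraries 2 and 3, with Cd4 and Siglech at 0 in all 4. Smooth muscle markers summed to 197 to 461 CPM (wild type 56.9 to 85.6), with 4 of 8 higher. Endothelial markers summed to 18.4 to 40.9 CPM, below all wild type libraries at 59.6 to 93.7, with Tek of 8 tested lower. The part of these markers was not tested. Without libraries 1 and 4 and SmoFF library 1, a setting chosen after seeing the data, 13 genes were higher and 0 lower, and Ifi204 (0.96), Ifitm1 (2.62) and Ifi27l2a (2.36) stayed called. Irf1 (-0.82, adjusted p = 0.0591) and Ifih1 (0.84, adjusted p = 0.0791) did not. Against SmoFF, 10 of 48 genes were higher and 3 lower in Gli2FFGli3FF, out of 7.68% and 8.83% of all genes (16.5% in either direction). Higher were Ifi204 (1.05), Bst2 (1.70), Ifi27l2a (2.04), Ifitm1 (2.18), Ifi203 (1.17), Ifitm3 (1.10), Ifi211 (0.88), Xaf1 (1.27), Zbp1 (1.57) and Parp14 (0.97), and lower Irf1 (-1.13), Oas2 and Isg20. In that comparison 4 of 10 mesothelial markers were lower, with sums of 176 to 411 CPM against 590 to 1429 CPM in SmoFF, and 5 of 10 fibroblast markers higher. Their part was not tested.

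In the pathway above these genes, Jak2, a kinase of the interferon gamma receptor, rose in 3 genotypes. It was at 17.9 ± 3.43 CPM in wild type (SD, n = 5), 58.9 ± 2.57 in Gli2FF (1.70, n = 2), 51.0 ± 2.25 in Gli3FF (1.45, n = 2) and 89.5 ± 22.8 in Gli2FFGli3FF (2.25, n = 4). Ifngr1 fell in Gli2FF (-1.08) and Gli2FFGli3FF (-0.97), and Ifngr2 (-1.01) and Ifnar2 (-0.78) in Gli2FF. Socs1, a feedback inhibitor of JAK kinases, fell in Ctnnb1FF (-1.59) and Gli2FFGli3FF (-1.90). Of the 6 receptors, 7 transducers, 14 sensing adaptors and 8 negative regulators tested, SmoFF and SmoM2 gave 0 calls, and at the other extreme Ctnnb1FF gave 2 higher and 8 lower.

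Across groups the PYHIN genes did not move as a block. Ifi204 was called in 6 of the 7 comparisons, higher in Ctnnb1FF, Gli2FF and Gli2FFGli3FF and lower in BDL, SmoM2 and Gli3FF. Ifi203 was higher in the same 3 genotypes and lower in BDL, and Ifi211 was higher in Ctnnb1FF and Gli2FFGli3FF and lower in BDL and SmoM2. In Gli3FF the direction of Ifi204 was opposite to the positive, uncalled values of Ifi203 and Ifi211 (0.63 and 0.36). Since the 3 genes are related in sequence, reads could be shared between them.

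Within groups, the same library often led. BDL library 2 was the highest of its group in 30 of 48 genes and library 1 the lowest in 30. SmoM2 library 1 was the lowest in 34 of 47 genes with counts. Among SmoFF libraries, library 3 was highest in 21 and library 4 lowest in 22 of 47.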

How the data were processed

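Per the labels' protocols, each library came from about 1000 sorted cells of 1 animal, amplified as full-length cDNA without molecular identifiers. The authors deposited whole-number read counts per gene, with mm10 as the build per the submitters' processing notes. Which aligner, counter and strand setting made them is not given in the sources used here. Samples were grouped by title. Wild type replicate 5 was kept as labelled in its title, although its description names SmoFF.

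Tests used edgeR 4.0.16 and R 4.3.3, with its default filter, TMM scaling and the quasi-likelihood test, over all 17150 genes of the 6 Gli1 libraries and all 24383 genes of the 23 Pdgfra libraries in 1 fit. Genes were called at a Benjamini-Hochberg adjusted p under 0.05. Printed CPM share TMM scaling over all 29 libraries, and log2 CPM has a prior count of 2. Intervals cover counting error only, and p-values reflect how far these animals' libraries differ. The code was tried on simulated data.

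All 48 genes are accounted for. Named with their values, and carried through the alternatives, are the called genes with the smallest p in each comparison (at most 10), or the 4 with the smallest p where fewer than 4 were called. The alternatives were RLE and upper quartile scaling, other filters, DESeq2 1.42.0, a replicate block, fewer groups or controls, no ribosomal RNA locus, and leaving out each library. The genes and lists were chosen with earlier results of these data known. The 11 genes without a RefSeq promoter entry were left out of the motif search.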

Additional observations from a re-analysis of the deposited data

Results flagged for a closer look

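Among 76 sets of levels checked (25 genes and the mean level of the 48 genes, in the groups of 4 or 5 libraries, less Oas3 where all libraries were at 0), 5 held a library far from the others of its group, and chance alone sets apart about 1 in 20. Ifitm1 was at 98.8 CPM in wild type library 2 and at 47.7 to 62.3 CPM in the other wild type libraries. Gbp5 was at 7.16 CPM in wild type library 5 against 1.55 to 2.78 CPM in the others. In SmoFF, Trim30a was at 32.1 CPM in library 3 against 13.1 to 15.7 CPM, and Xaf1 at 33.7 CPM in library 1 against 13 to 16.1 CPM. Ifit1 was at 6.65 CPM in SmoFF library 2, below 23.2 to 25.2 CPM in the others.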

How the results depend on the processing

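The fall in BDL kept its direction in all alternatives run, with 6 to 19 genes lower when 1 library was left out, against 22. No gene followed through the alternatives changed sign. The replicate numbers did not pair the BDL and uninjured samples (the correlation of deviations was -0.041 to -0.021 for the 3 pairs). In SmoFF (-0.065 to 0.124) and Gli3FF (-0.260 to 0.167) against wild type 1 pair each passed 0.1. So did 1 pair in Gli2FFGli3FF against SmoFF (-0.003 to 0.104), and none did in the other comparisons. With the replicate block 8 genes were lower in BDL and 1 higher in Gli3FF against Gli2FF. The cause of the changes below was not tested. Gli2FF and Gli3FF had 2 animals each, and 5 of the 48 genes had too few counts to be tested in the Gli1 libraries.

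Leaving out 1 library gave, against wild type, 0 to 1 genes lower in SmoFF, 1 to 2 lower in SmoM2, 6 to 10 higher and 1 to 2 lower in Ctnnb1FF, 0 to 2 higher and 0 to 2 lower in Gli2FF, 1 to 1 higher and 0 to 2 lower in Gli3FF, and 9 to 13 higher and 1 to 2 lower in Gli2FFGli3FF. It gave 0 to 1 higher and 1 to 2 lower in SmoM2 against SmoFF, 0 to 1 higher and 1 to 1 lower in Gli3FF against Gli2FF, and 9 to 11 higher and 1 to 3 lower in Gli2FFGli3FF against SmoFF. The calls in Gli2FF fell to 0 without Gli2FF library 1 and those lower in Gli3FF to 0 without Gli3FF library 2.

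DESeq2 called 2 genes higher and 2 lower in SmoFF, 4 higher and 3 lower in Gli2FF, 2 higher and 4 lower in Gli3FF, and 2 lower in Gli2FFGli3FF. Without a filter on low counts 2 were lower in SmoFF, 1 higher in SmoM2, 1 lower in Ctnnb1FF, 1 lower in Gli2FF, 2 higher and 5 lower in Gli3FF, and 3 lower in Gli2FFGli3FF. With only the groups compared, 3 were lower in Gli2FF, 2 higher and 4 lower in Gli3FF, 4 lower in Gli2FFGli3FF, 1 lower in SmoM2 against SmoFF, and 0 higher and 0 lower in Gli3FF against Gli2FF. RLE scaling left 1 higher in Gli3FF against Gli2FF. With wild type 1 to 3 alone 1 was lower in SmoFF and 1 lower in Gli2FF. With wild type 4 and 5 alone 1 was lower in Ctnnb1FF, 0 higher in Gli2FF and 6 higher in Gli2FFGli3FF. Without the 3 libraries with high immune markers, chosen after seeing the data, 1 was lower in SmoFF, 2 higher in Gli3FF and 0 lower in Gli2FFGli3FF. In that setting SmoM2 had 1 higher and 1 lower against SmoFF, Gli3FF 1 lower against Gli2FF, and Gli2FFGli3FF 0 lower against SmoFF. The differences in the mean level of the 48 genes moved by less than the larger SD of the groups compared in all alternatives run. Leaving out 1 library cannot move a group mean by more than its SD, so those runs could not fail this mark. Their sign did change in SmoFF (0.022, range -0.127 to 0.161) and Gli2FF (-0.161, range -0.356 to 0.034) against wild type. It also changed in Gli3FF against Gli2FF (-0.068, range -0.263 to 0.127).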
